A study of Homo sapiens with 6 samples.

Results

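Lysosomes are the acidic organelles in which cells degrade proteins, glycans and lipids, and the 47 genes described here encode parts of this machinery in Meg-01 cells. They were chosen by name, with earlier results of these data known. They are the rows of the read-count table whose Ensembl identifier carries 1 of 47 symbols. All 47 were found among the 58735 genes of the table. They comprise 3 transcription factors of the TFEB family, 6 membrane and cholesterol-egress proteins, 9 proteases, 9 glycan-degrading enzymes, 5 lipid-degrading enzymes and their activators, and 15 subunits of the V-ATPase. Meg-01 is an established human megakaryoblastic cell line. It was left untreated (control, 3 libraries) or grown with sodium propionate (C3, 500 µM, 48 h, 3 libraries), a bacterial fermentation product of the gut, to ask how C3 changes gene expression in cells of the megakaryocyte lineage. The treatment time of 48 h is that of the labels of the C3 libraries, and the study's methods also mention 24 h. For the control libraries no time was noted from the labels. The libraries of a group are called technical replicates by the study, so the p-values measure the spread between these libraries, which need not include that between independent cultures. In bulk RNA, fewer cells that express a gene and less RNA per cell cannot be told apart.

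The lumen of the lysosome is kept acidic by the V-ATPase, a rotary proton pump whose cytosolic V1 sector hydrolyses ATP and whose membrane-embedded V0 sector carries the protons. Acid hydrolases are delivered by the mannose 6-phosphate route and work at this low pH. TFEB and its relatives TFE3 and MITF bind E-boxes of the CLEAR type in the promoters of many lysosomal genes, and are held in the cytosol by mTORC1 when nutrients are plentiful. In megakaryocytes, lysosomes and the related dense and alpha granules draw on the same endosomal sorting routes.

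Library totals ranged from 16159449 to 22821722 counts, and counts were scaled with TMM factors (normalized counts). Within groups, control replicates 1 and 2 (chi-square divided by its degrees of freedom 2.44) and C3 replicates 2 and 3 (2.92) were most alike, whereas pairs with control replicate 3 or C3 replicate 1 gave 5.40 to 8.38, so these libraries stood apart. All pairs exceeded the value of 1 for pure counting error. Of 14 megakaryocyte and platelet markers, 12 passed the filter on low counts and PF4 and GP1BB were at 0 in every library. Their summed level was 1438 to 1512 CPM (counts scaled to a common library total) in control and 1350 to 1473 CPM in C3 libraries. At an adjusted p-value below 0.05, ITGB3 rose (log2 fold change 0.34) and GP1BA (-0.49), TUBB1 (-1.36) and NFE2 (-0.38) fell, of which GP1BA and TUBB1 were DEGs. Of 10 macrophage markers, 4 passed, and CD163, C1QA, C1QB and C1QC were at 0 in every library. Their summed level was 40.2 to 41.8 CPM in control and 31.1 to 32.3 CPM in C3 libraries, without overlap. LYZ fell (log2 fold change -0.51), and the other tested macrophage markers were not called, with log2 fold changes of -0.46 for ADGRE1, 0.26 for CSF1R and 0.42 for MSR1. The 8 erythroid markers summed to 20.9 to 23.1 CPM in control and 21.2 to 25.2 CPM in C3 libraries, and the 6 lymphoid markers to 12.6 to 13.3 CPM and 13.2 to 18.7 CPM. The part of these markers in the results was not tested.

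The lysosomal genes changed little after C3 treatment. Of the 46 members that passed the filter, 45 had a fold change below 1.3 in either direction, and the exception was LGMN, which rose 1.54-fold. LGMN alone passed the gates of the study for a DEG (edgeR adjusted p below 0.01, fold change above 1.3) with higher expression, 1 of 46 members or 2.17%, beside 5.05% of all 15078 genes tested (6.52% in either direction). In the other direction edgeR, DESeq2 and limma-voom each called 0 members, beside 1.47% of all genes, and 14 members (30.4%) were lower at an unadjusted p-value below 0.05, beside 15.3% of all genes. At an adjusted p-value below 0.05 at any fold change, 5 members rose (10.9% of members, beside 11.0% of all genes) and 6 fell (13.0%, beside 8.77%), 23.9% in all beside 19.8%. At 0.01 and any fold change 4 rose and 5 fell, beside 6.51% and 4.06% of all genes. The risers were LGMN, CTSL, IDS, ATP6V0A1 and TFEB. TPP1, CTSD, ATP6V0D1, CTSA, NEU1 and GUSB fell.

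Below these calls, most members lay slightly under their control level. The log2 fold change was below 0 in 34 of 46 members (73.9%), beside 49.6% of all genes tested, and its median was -0.11, beside 0.0021 for all genes. With library size alone in place of TMM factors, 29 members were below 0 and the medians were -0.040 for the members and 0.076 for all genes. The C3 libraries lay all below the control libraries in 17 members (37.0%, beside 16.9% of all genes) and all above them in 5 (10.9%, beside 17.5%), and in the other 24 the groups overlapped. The 47 genes together held 4306, 4315 and 4352 CPM in control replicates 1 to 3, and 4317, 4071 and 4063 CPM in C3 replicates 1 to 3. In this sum C3 replicate 1 lay within the control range and the other C3 libraries below it. By role, C3 replicate 1 lay above the controls for the lipid-degrading group with the abundant PSAP (1340 CPM, beside 1269 to 1307). The same held for the V0 sector (679, beside 643 to 653). It lay below the controls for proteases (798, beside 821 to 835), membrane proteins (430, beside 457 to 471) and V1 (486, beside 508 to 528). For the TFEB family and the glycan-degrading enzymes it lay within their range. C3 replicates 1 and 3 also bore most on the calls. Without C3 replicate 3, 3 members rose and 3 fell, and without C3 replicate 1, 4 rose and 13 fell. The share of all genes called was counted for the main fit only, so these counts have no such share beside them.

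**Figure D1:**
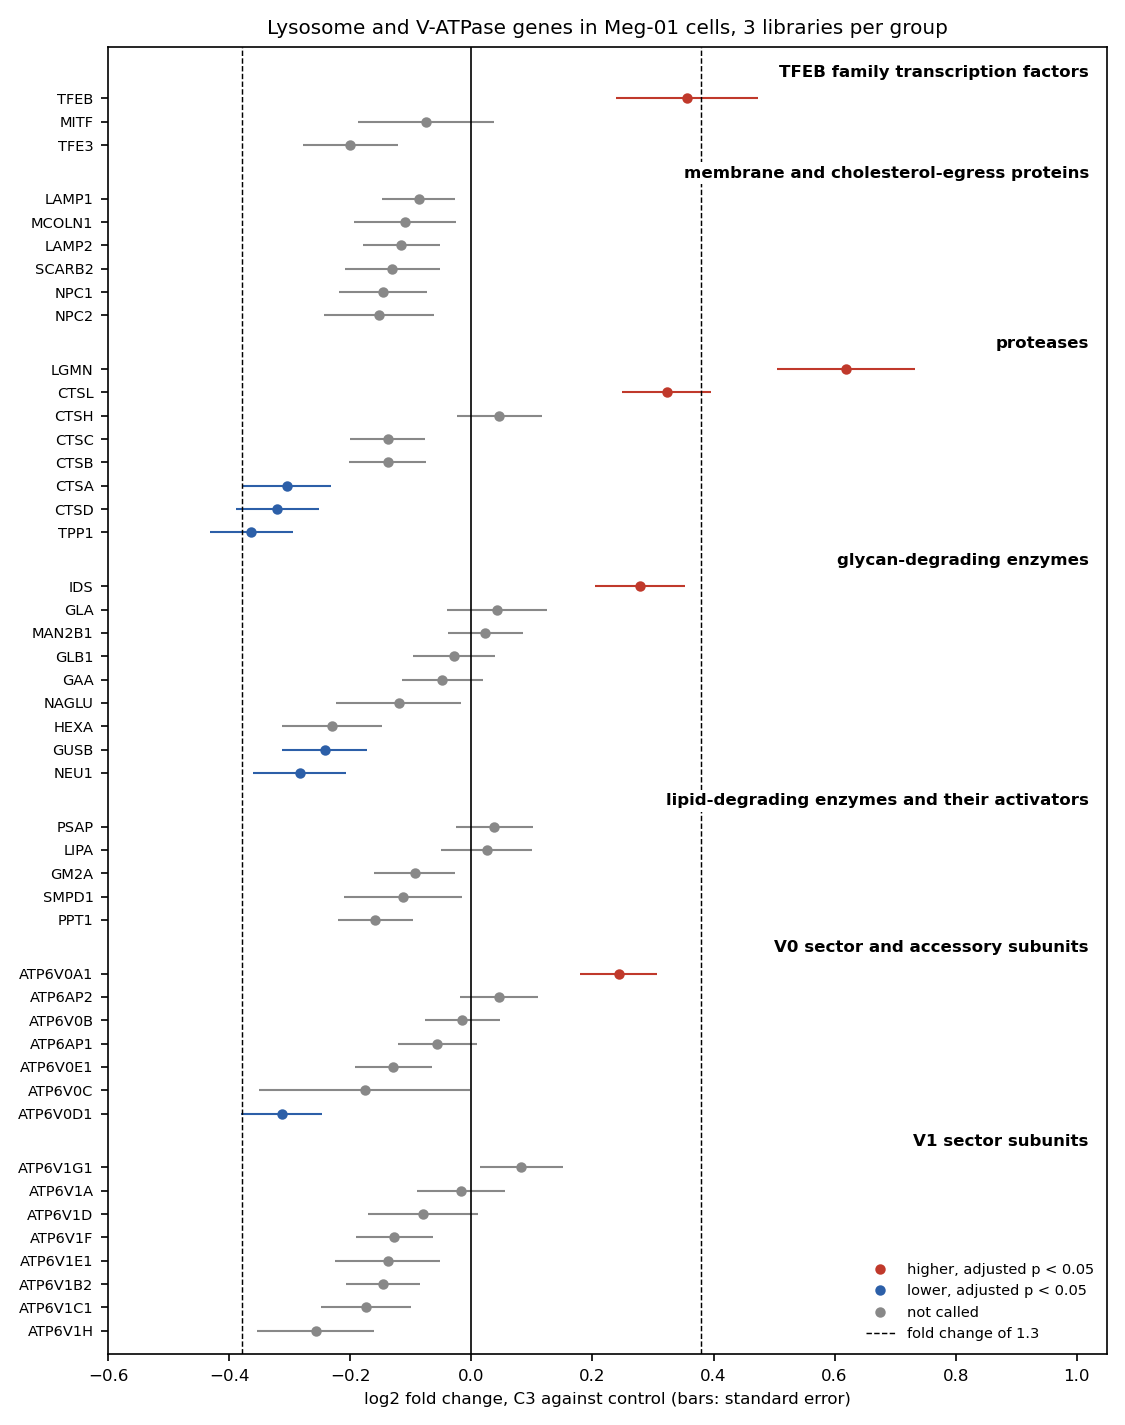
Log2 fold change (C3 against control) of the 46 tested lysosome and V-ATPase genes by role, with bars for the standard error and dashed lines at a fold change of 1.3. Points sit mostly left of 0, LGMN alone lies past a dashed line, and the 11 genes at an adjusted p-value below 0.05 (edgeR) are coloured red (5 higher) or blue (6 lower).

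Promoter sequences bear on these genes because the TFEB family binds them. RefSeq promoters (GRCh38.p14, 250 bases before to 50 bases after the start) matched 36 of the 47 members by symbol. LGMN, which rose, was not among them. A single window was kept per symbol, so other starts of a gene were not searched. Each promoter was searched for 3 nested palindromes, which read alike on both strands. They were the E-box CACGTG, the CLEAR core TCACGTGA, and the whole CLEAR element, which adds a base on each side of the core. Every longer motif contains the shorter ones. CACGTG was present in 9 of the 36 member promoters (25.0%), beside 7.43% of 27305 promoters of this length and 10.2% of those of 11097 tested genes. TCACGTGA was present in 6 (16.7%, beside 1.04% of all promoters and 1.86% of those of tested genes) and the whole element in 3 (8.33%, beside 0.381% and 0.730%). Of 129 promoters of other pathway genes, 24 (18.6%) held CACGTG, 12 (9.30%) TCACGTGA and 6 (4.65%) the whole element. Of the 6 members that fell, 4 held CACGTG, and of the 4 members that rose and had a promoter in the table, 0 did. Among the 26 promoters of members with no call, 5 did. The other pathway genes with a motif were not counted by direction, and both directions occurred among them. With TCACGTGA, the lysosomal enzyme SCPEP1 rose (log2 fold change 0.78) and the lysosomal enzyme GALNS fell (-0.31). Whether the motif goes with a direction was not tested. Members with CACGTG had a median log2 fold change of -0.11, and those without it -0.087. For the CLEAR core the medians were -0.099 with and -0.094 without it, and for the whole element the order turned, with -0.048 and -0.10.

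The promoters of the 4 members that fell and held the motif are shown 5′ to 3′ on the strand of the gene, with every match of the 3 motifs in capitals. They lie at chr20:45891085-45891384 (CTSA, forward strand), chr11:1763878-1764177 (CTSD, reverse), chr6:31862772-31863071 (NEU1, reverse) and chr16:67481108-67481407 (ATP6V0D1, reverse).
CTSA: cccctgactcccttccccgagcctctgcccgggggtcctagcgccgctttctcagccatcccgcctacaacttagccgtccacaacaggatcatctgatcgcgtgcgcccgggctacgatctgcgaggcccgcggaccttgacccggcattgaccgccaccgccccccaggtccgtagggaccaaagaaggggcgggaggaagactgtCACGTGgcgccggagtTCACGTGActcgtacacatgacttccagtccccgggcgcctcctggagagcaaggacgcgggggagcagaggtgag
CTSD: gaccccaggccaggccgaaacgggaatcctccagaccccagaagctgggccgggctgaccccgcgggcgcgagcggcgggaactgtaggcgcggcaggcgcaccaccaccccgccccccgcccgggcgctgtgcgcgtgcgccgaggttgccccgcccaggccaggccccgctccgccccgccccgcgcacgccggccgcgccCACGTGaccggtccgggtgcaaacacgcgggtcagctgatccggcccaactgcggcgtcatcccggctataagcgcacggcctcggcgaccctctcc
NEU1: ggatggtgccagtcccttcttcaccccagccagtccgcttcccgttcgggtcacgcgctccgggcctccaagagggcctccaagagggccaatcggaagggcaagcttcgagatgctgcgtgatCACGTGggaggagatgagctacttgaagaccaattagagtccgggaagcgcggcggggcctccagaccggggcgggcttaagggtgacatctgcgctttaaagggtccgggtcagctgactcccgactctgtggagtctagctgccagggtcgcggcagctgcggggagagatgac
ATP6V0D1: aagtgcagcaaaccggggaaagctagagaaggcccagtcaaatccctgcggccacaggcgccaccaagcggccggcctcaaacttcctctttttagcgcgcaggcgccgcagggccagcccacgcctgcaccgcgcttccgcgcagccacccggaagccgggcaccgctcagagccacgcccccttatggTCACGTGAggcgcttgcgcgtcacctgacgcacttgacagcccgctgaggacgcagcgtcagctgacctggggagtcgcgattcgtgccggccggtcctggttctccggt
Counted from the RefSeq start that defines each window, which can differ from the GENCODE gene boundaries given for the genes, the CLEAR core began 60 bases upstream in ATP6V0D1 and 26 bases upstream in CTSA. The E-box began 47 bases upstream of this start in CTSD and 126 bases upstream in NEU1. For comparison, the 30 bases around the best match are given for the other 5 members with CACGTG, none of which passed the test at an adjusted p-value of 0.05. They lie at chr9:114587699-114587728 (ATP6V1G1, forward), chr17:80101493-80101522 (GAA, forward), chr19:7522598-7522627 (MCOLN1, forward), chr13:113297199-113297228 (LAMP1, forward) and chr1:43974891-43974920 (ATP6V0B, forward).
ATP6V1G1: acgctgtgcgGTCACGTGACaacgggggcg
GAA: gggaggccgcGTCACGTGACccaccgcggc
MCOLN1: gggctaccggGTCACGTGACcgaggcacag
LAMP1: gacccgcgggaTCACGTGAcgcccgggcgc
ATP6V0B: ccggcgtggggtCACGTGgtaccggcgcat
The members with the whole CLEAR element, ATP6V1G1, GAA and MCOLN1, had log2 fold changes of 0.083, -0.048 and -0.11. A match describes the letters of a promoter and not whether a factor was bound there.

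Among the transcription factors, TFEB rose and the other members of the family were not called. TFEB has the identifier ENSG00000112561 (GRCh38, chromosome 6, 41683978 to 41736259, reverse strand). Its normalized counts were 178, 181 and 166 in the control libraries and 241, 202 and 231 in the C3 libraries. Every C3 library lay above every control library, a mean of 175 ± 8.13 against 225 ± 20.5 (SD, n = 3 each), and the log2 fold change was 0.36 (standard error 0.12, edgeR adjusted p = 0.0323). This call was weak. It was lost with DESeq2 (adjusted p = 0.103) and without each of control replicates 1, 2 and 3 and C3 replicates 1 and 3 (edgeR adjusted p = 0.0639, 0.0719, 0.0882, 0.0702 and 0.130), while the log2 fold change stayed between 0.31 and 0.43 in all alternatives.

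TFE3 (ENSG00000068323), which shares targets with TFEB, had 745, 633 and 660 normalized counts in control and 593, 602 and 583 in C3 libraries. All C3 libraries lay below the control libraries, but the log2 fold change of -0.20 (standard error 0.078) did not pass the test (edgeR adjusted p = 0.0732). MITF (ENSG00000187098), the melanocyte and osteoclast member of the family, had 264, 266 and 257 normalized counts in control and 250, 285 and 215 in C3 libraries. The groups overlapped (log2 fold change -0.075, edgeR adjusted p = 0.692), and the sign turned without C3 replicate 3. Within libraries, which makes the scaling irrelevant, the log2 ratio of TFEB to TFE3 was -2.06, -1.80 and -1.99 in control and -1.30, -1.58 and -1.33 in C3 libraries. The difference of 0.55 gave an exact permutation p of 0.1 (two-sided), which 3 libraries against 3 cannot go below. It was 1 of 4 such ratios, all chosen after their values were seen, and its Benjamini-Hochberg adjusted p-value was 0.1. Each ratio set a gene with all C3 libraries above the control libraries against a gene with all of them below. The p-values of the 4 ratios were therefore fixed in advance and test nothing further. Per kilobase of merged exons, TFE3 had the highest control level of the family (8.67 ± 0.748 CPM per kilobase, SD, n = 3), above MITF (1.90 ± 0.0365) and TFEB (1.40 ± 0.0649). By canonical transcript length TFE3 was again highest (11.1 ± 0.956), but TFEB (4.03 ± 0.187) lay above MITF (2.93 ± 0.0564), so the order of these genes depends on the length used.

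**Figure D2:**
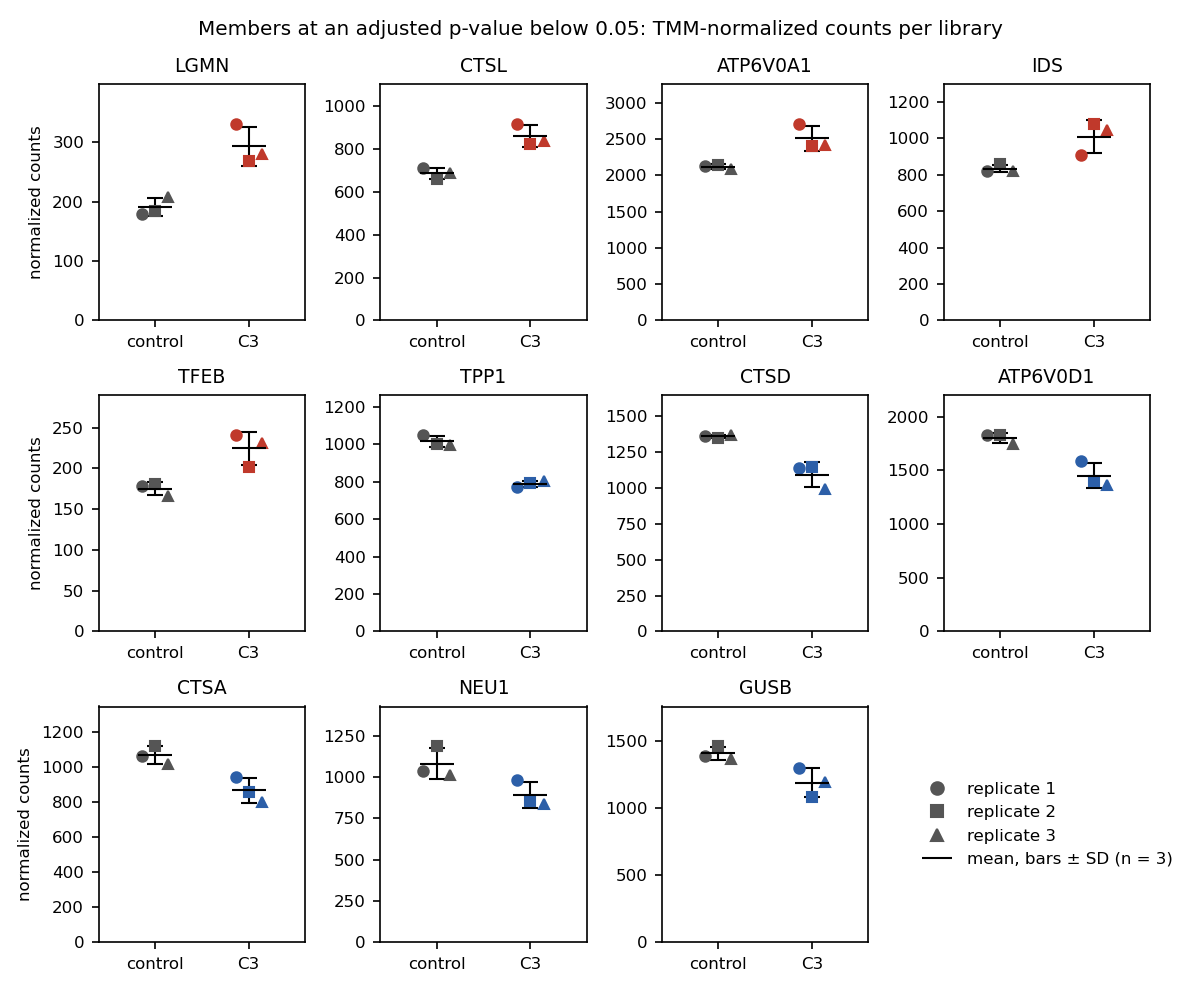
TMM-normalized counts per library (y axes start at 0) of the 11 members at an adjusted p-value below 0.05, with the mean and SD of 3 libraries. In each panel the C3 libraries lie all above (LGMN, CTSL, ATP6V0A1, IDS and TFEB) or all below the control libraries.

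The proteases held the largest changes, and they went in both directions. Of 8 tested proteases, 2 rose (LGMN and CTSL), 3 fell (TPP1, CTSD and CTSA) and 3 were not called (25.0% higher and 37.5% lower, beside 11.0% and 8.77% of all genes), with a median log2 fold change of -0.14. LGMN (ENSG00000100600; chromosome 14, 92703807 to 92748679, reverse strand) encodes legumain, a cysteine endopeptidase that cleaves after asparagine and processes cathepsins. Its normalized counts were 179, 185 and 208 in control and 331, 268 and 280 in C3 libraries, so that the lowest C3 library lay well above the highest control library. The means were 191 ± 15.2 and 293 ± 33.6 (SD, n = 3), and the log2 fold change was 0.62 (standard error 0.11, edgeR adjusted p = 0.000363). LGMN passed the gate of 0.05 in all 13 alternatives that were run, with log2 fold changes of 0.53 to 0.69.

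CTSL (ENSG00000135047; chromosome 9, 87724051 to 87731469, forward strand) encodes cathepsin L, another cysteine endopeptidase. It had 711, 660 and 689 normalized counts in control and 918, 824 and 838 in C3 libraries, again without overlap. Its log2 fold change was 0.32 (standard error 0.073, edgeR adjusted p = 0.0025), a 1.25-fold rise.

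TPP1 (ENSG00000166340; chromosome 11, 6612768 to 6619448, reverse strand), the tripeptidyl peptidase whose loss causes a neuronal ceroid lipofuscinosis, fell from 1051, 1002 and 995 to 771, 793 and 805 normalized counts. The means were 1016 ± 30.7 and 790 ± 17.4 (SD, n = 3), and the log2 fold change was -0.36 (standard error 0.068, edgeR adjusted p = 0.000432), the lowest value of all members. CTSD (ENSG00000117984; chromosome 11, 1752752 to 1764573, reverse strand), the aspartic endopeptidase cathepsin D, had 1366, 1351 and 1372 normalized counts in control and 1139, 1147 and 994 in C3 libraries. Control libraries were almost alike and C3 replicate 3 was the lowest of the C3 libraries. Its log2 fold change was -0.32 (standard error 0.069, edgeR adjusted p = 0.00155). CTSA (ENSG00000064601; chromosome 20, 45890144 to 45898949, forward strand), the serine carboxypeptidase that also protects NEU1 and GLB1 in a complex, had 1063, 1122 and 1021 normalized counts in control and 942, 859 and 801 in C3 libraries. Its log2 fold change was -0.31 (standard error 0.073, edgeR adjusted p = 0.00393), and the call was lost without C3 replicate 3 (adjusted p = 0.0586). Other annotated genes share exon bases with CTSD (27.3% on the same and 23.4% on the other strand), CTSA (21.5% on the other strand) and TPP1 (11.6% on the same strand), so part of their reads is uncertain.

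The other proteases were not called. CTSB, cathepsin B, had the highest protease level per kilobase of merged exons (27.9 ± 0.488 CPM per kilobase in control, SD, n = 3). Its normalized counts were 5586, 5396 and 5466 in control and 5407, 4772 and 4773 in C3 libraries, where C3 replicate 1 overlapped the control libraries. The log2 fold change was -0.14 (edgeR adjusted p = 0.135), and without C3 replicate 1 it was -0.20 (adjusted p = 0.00699). CTSC, the dipeptidyl peptidase that activates granule serine proteases, had a log2 fold change of -0.14 (edgeR adjusted p = 0.121) with all C3 libraries below the control libraries and was called without C3 replicate 1, and CTSH, an aminopeptidase, one of 0.046 (0.699). CTSZ did not pass the filter, with 5, 6 and 5 counts in control and 2, 3 and 1 in C3 libraries, all lower than in control, and was not tested. In total, 31.7% of its exon bases overlap a gene on the other strand. Within libraries, the log2 ratio of CTSL to CTSD was -0.94, -1.03 and -0.99 in control and -0.31, -0.48 and -0.25 in C3 libraries. The difference was 0.64 (exact two-sided permutation p = 0.1, adjusted 0.1), and its direction follows from pairing a gene called higher with a gene called lower.

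Of the 9 glycan-degrading enzymes, 1 rose, 2 fell and 6 were not called by edgeR, whereas limma-voom called 3 lower. The edgeR shares were 11.1% higher and 22.2% lower, beside 11.0% and 8.77% of all genes, with a median log2 fold change of -0.048. This median turned to 0.024 with library size alone, where the median of all genes tested also moved, from 0.0021 to 0.076. IDS (ENSG00000010404; chromosome X, 149476988 to 149521096, reverse strand), the iduronate sulfatase that is deficient in Hunter syndrome, had 823, 858 and 824 normalized counts in control and 907, 1080 and 1045 in C3 libraries. The groups did not overlap, with C3 replicate 1 nearest to the controls. Its log2 fold change was 0.28 (standard error 0.074, edgeR adjusted p = 0.00843). The call was lost without C3 replicate 2 (adjusted p = 0.0531) or C3 replicate 3 (0.0559), and 75.9% of its exon bases are shared with other genes of the same strand.

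NEU1 (ENSG00000204386; chromosome 6, 31857659 to 31862905, reverse strand), the lysosomal sialidase, had 1039, 1190 and 1016 normalized counts in control and 980, 857 and 837 in C3 libraries. Its log2 fold change was -0.28 (standard error 0.077, edgeR adjusted p = 0.00994). GUSB (ENSG00000169919; chromosome 7, 65960684 to 65982215, reverse strand), the beta-glucuronidase often taken as a reference gene in qPCR, had 1388, 1462 and 1366 normalized counts in control and 1298, 1080 and 1190 in C3 libraries. Its log2 fold change was -0.24 (standard error 0.071, edgeR adjusted p = 0.0158). In both genes the C3 libraries lay all below the control libraries. Both calls were lost with library size alone (adjusted p = 0.0562 for NEU1 and 0.0879 for GUSB), without control replicate 2 (0.121 and 0.102) and without C3 replicate 3 (0.0880 and 0.0639), and that of GUSB also without C3 replicate 2 (0.128).

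GLB1, the lysosomal beta-galactosidase, had the highest level of these enzymes per kilobase of merged exons (20.5 ± 0.697 CPM per kilobase in control, SD, n = 3). Its normalized counts of 1683, 1692 and 1590 in control and 1789, 1534 and 1554 in C3 libraries overlapped. The log2 fold change was -0.028 (edgeR adjusted p = 0.822), and its sign turned with library size alone and without C3 replicate 2 or 3. HEXA, the alpha subunit of hexosaminidase, named after its value was seen, lay just outside the gate. It had 536, 539 and 499 normalized counts in control and 483, 428 and 435 in C3 libraries, with an edgeR adjusted p-value of 0.0508. HEXA was called lower with limma-voom, with RLE factors, with the replicate block, and without control replicate 3 or C3 replicate 1. Genes on the other strand share 14.1% of its exon bases. The remaining GAA, GLA, MAN2B1 and NAGLU, which degrade glycogen, alpha-galactosides, alpha-mannosides and heparan sulfate, had log2 fold changes of -0.12 (NAGLU) to 0.042 (GLA). MAN2B1 and NAGLU share 21.2% and 12.9% of their exon bases with genes of the same strand.

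None of the 5 lipid-degrading enzymes and activators was called by edgeR or limma-voom (beside 19.8% of all genes with edgeR), 1 was lower at an unadjusted p-value below 0.05, beside 15.3% of all genes, and DESeq2 called 1 lower. This gene was PPT1, the palmitoyl-protein thioesterase, with 3309, 3387 and 3644 normalized counts in control and 3139, 3037 and 3086 in C3 libraries. The groups did not overlap, with a log2 fold change of -0.16 (edgeR adjusted p = 0.0714), and PPT1 was called by edgeR without C3 replicate 1. PSAP, the precursor of the saposins that present lipids to their hydrolases, was the most abundant member of all, at 316 ± 3.53 CPM per kilobase of merged exons in control (SD, n = 3). Its normalized counts of 18419, 18140 and 18539 in control and 19768, 18359 and 18438 in C3 libraries overlapped, and the log2 fold change was 0.038 (standard error 0.064, edgeR adjusted p = 0.733). GM2A, SMPD1 and LIPA, which serve ganglioside, sphingomyelin and cholesteryl ester breakdown, had log2 fold changes of -0.094, -0.11 and 0.025.

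Of the 6 membrane and cholesterol-egress proteins, edgeR, DESeq2 and limma-voom each called 0, beside 19.8% of all genes with edgeR, and 0 passed an unadjusted p-value of 0.05. Without C3 replicate 1, NPC1 was called. All 6 had log2 fold changes below 0, in a narrow range from -0.15 (NPC2) to -0.087 (LAMP1). LAMP1, the main glycoprotein of the lysosomal membrane, was the highest of them (29.1 ± 0.778 CPM per kilobase of merged exons in control, SD, n = 3). It had 3050, 3082 and 3207 normalized counts in control and 2949, 2955 and 2888 in C3 libraries, without overlap, but with an edgeR adjusted p-value of 0.342. LAMP2, needed for the fusion of autophagosomes, had a log2 fold change of -0.12. SCARB2, the receptor that brings glucocerebrosidase to lysosomes, had -0.13, NPC1 and NPC2, which pass cholesterol out of the lumen, had -0.15 and -0.15, and MCOLN1, a calcium channel, had -0.11. The summed level of the 6 genes was 457, 471 and 471 CPM in control and 430, 439 and 426 CPM in C3 libraries, which did not overlap. Their median log2 fold change was -0.12, and -0.048 with library size alone, beside 0.076 for all genes tested.

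**Figure D3:**
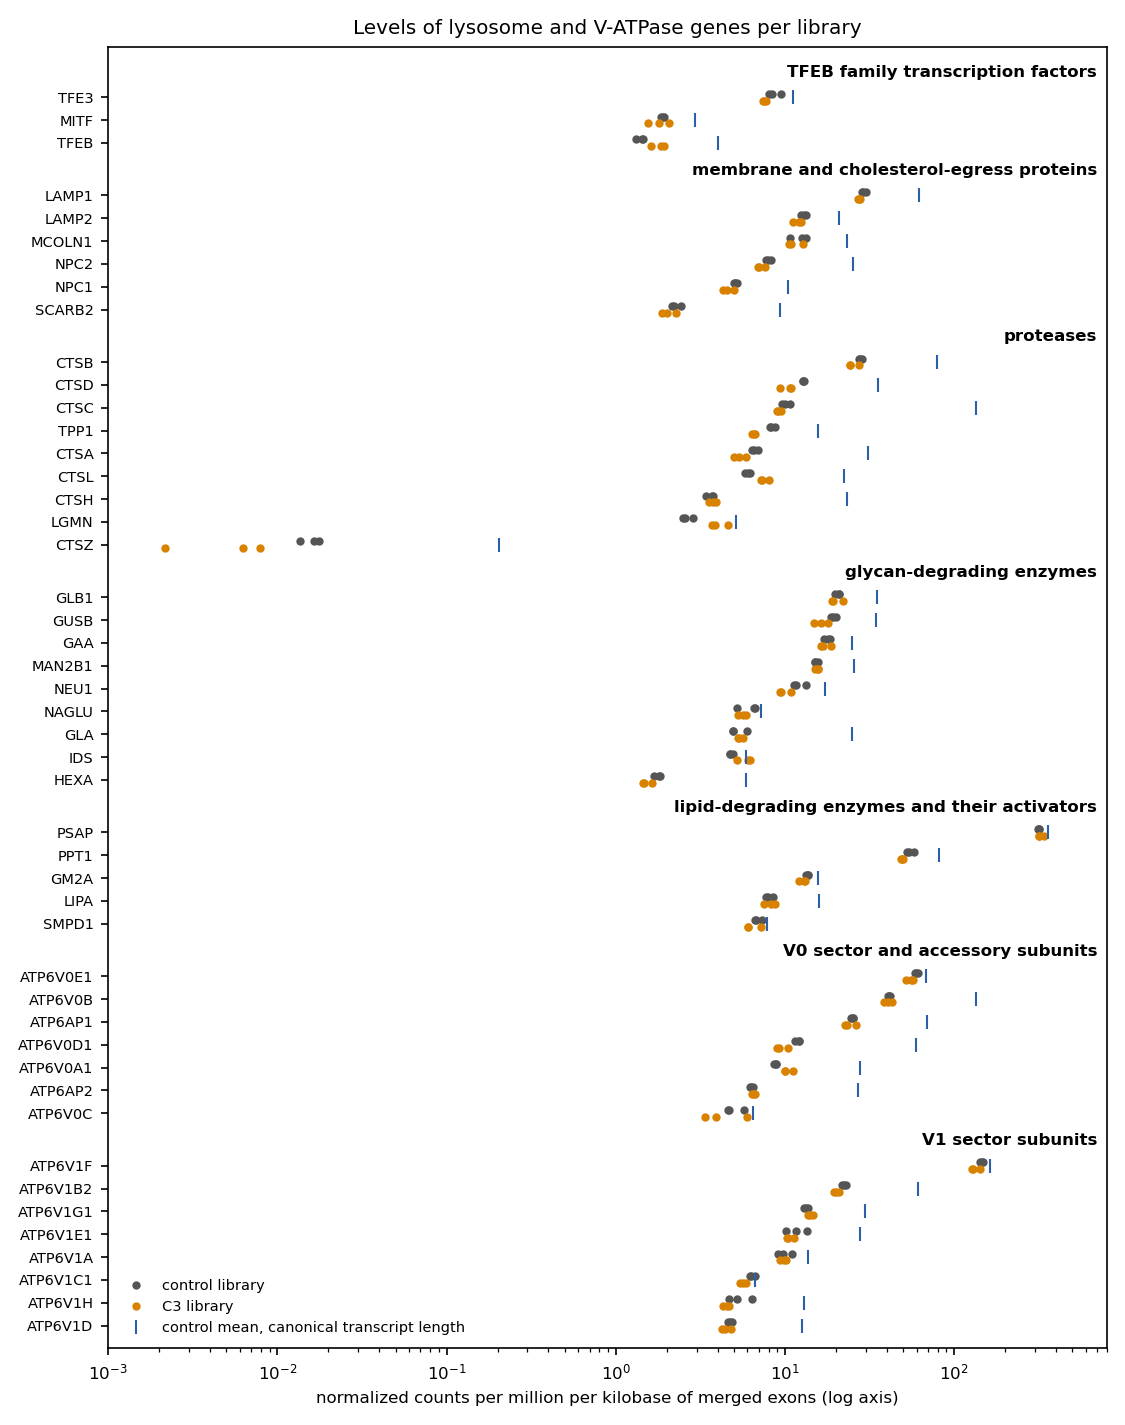
Level of each of the 47 genes in every library, in TMM-scaled CPM per kilobase of merged exons on a log axis, with a blue tick for the control mean by the length of the Ensembl canonical transcript. PSAP (316 in control) and ATP6V1F (145) stand highest and CTSZ lowest, and control and C3 libraries lie close together in nearly all rows.

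Of the 15 V-ATPase genes, edgeR called 2 at an adjusted p-value below 0.05 (13.3%, beside 19.8% of all genes), 1 in each direction, and 12 had log2 fold changes below 0. In the V0 sector with its accessory proteins (7 genes, median log2 fold change -0.056), ATP6V0A1 rose and ATP6V0D1 fell. The sign of this median turned with library size alone, to 0.016, beside a median of 0.076 for all genes tested. ATP6V0A1 (ENSG00000033627; chromosome 17, 42458844 to 42522582, forward strand) encodes an isoform of the large a subunit, which forms the proton path and sets where the pump is placed. Its normalized counts were 2134, 2139 and 2080 in control and 2708, 2403 and 2416 in C3 libraries, with means of 2118 ± 32.6 and 2509 ± 172 (SD, n = 3). The log2 fold change was 0.24 (standard error 0.064, edgeR adjusted p = 0.00801).

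ATP6V0D1 (ENSG00000159720; chromosome 16, 67438014 to 67481181, reverse strand) encodes the d subunit that couples the rotor of V1 to the ring of V0. It had 1828, 1832 and 1747 normalized counts in control and 1591, 1403 and 1365 in C3 libraries, with means of 1802 ± 48.2 and 1453 ± 121 (SD, n = 3). The log2 fold change was -0.31 (standard error 0.067, edgeR adjusted p = 0.00156). Both genes kept their calls at 0.05 in all 13 alternatives. Within libraries, the log2 ratio of ATP6V0A1 to ATP6V0D1 was 0.22, 0.22 and 0.25 in control and 0.77, 0.78 and 0.82 in C3 libraries. The difference of 0.56 (exact two-sided permutation p = 0.1, adjusted 0.1) is a description, since the pair was formed from the V0 gene called higher and the one called lower.

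The other V0 and accessory genes were not called. ATP6V0E1, a small membrane subunit, had the highest level of the sector by merged exons (59.7 ± 1.15 CPM per kilobase in control, SD, n = 3), and ATP6V0B, a subunit of the proton-binding ring, had it by canonical transcript length (135 ± 2.45). ATP6V0E1 had 1772, 1831 and 1771 normalized counts in control and 1713, 1548 and 1655 in C3 libraries, with a log2 fold change of -0.13 (edgeR adjusted p = 0.161). ATP6V0B, ATP6AP1 and ATP6AP2, of which the last is also known as the prorenin receptor, had log2 fold changes of -0.015, -0.056 and 0.046. ATP6V0C, the main ring subunit, was the least counted tested member, at 132 ± 16.7 normalized counts in control and 116 ± 36.6 in C3 libraries (SD, n = 3). Other genes of the same strand share 76.3% of its exon bases, so its level is uncertain.

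In the V1 sector, edgeR, DESeq2 and limma-voom each called 0 of 8 subunits at an adjusted p-value of 0.05 (beside 19.8% of all genes with edgeR), and 3 (37.5%) were lower at an unadjusted p-value below 0.05, beside 15.3% of all genes. Of the 8 log2 fold changes 7 were below 0, with a median of -0.13. ATP6V1F, a small subunit of the central stalk, had the highest level of the sector per kilobase of merged exons (145 ± 3.42 CPM per kilobase in control, SD, n = 3). Of its exon bases, 20.6% overlap a gene on the other strand. Its normalized counts were 2115, 2067 and 2018 in control and 2032, 1822 and 1830 in C3 libraries, where C3 replicate 1 overlapped the control libraries (log2 fold change -0.13, edgeR adjusted p = 0.171, and 0.0253 without C3 replicate 1). The catalytic subunit ATP6V1A had a log2 fold change of -0.017 and its regulatory partner ATP6V1B2 one of -0.15 (edgeR adjusted p = 0.906 and 0.0949). The peripheral stalk genes ATP6V1C1, ATP6V1E1 and ATP6V1G1 had -0.17, -0.14 and 0.083, and the rotor gene ATP6V1D had -0.080. The lowest value was that of ATP6V1H, which regulates the coupling of the sectors, at -0.26 (edgeR adjusted p = 0.0625). ATP6V1H was called with the replicate block and without control replicate 1, and ATP6V1B2 without C3 replicate 1. The summed level of the 8 genes was 511, 508 and 528 CPM in control and 486, 479 and 470 CPM in C3 libraries, again without overlap. These sums rest on TMM factors. With library size alone the median log2 fold change of the sector was -0.059, beside 0.076 for all genes tested.

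Other genes of the pathway, from 6 lists written from general knowledge but with earlier results of these data known, were counted in the same way. Of 162 genes, 151 passed the filter, 11 rose (7.28%) and 35 fell (23.2%) at an adjusted p-value below 0.05, beside 11.0% and 8.77% of all genes, and the median log2 fold change was -0.10. With library size alone 18 rose and 11 fell. The count of lower genes was 18, 13, 20 and 9 without control replicate 1, control replicate 2, C3 replicate 2 and C3 replicate 3, and that of higher genes 6, 7 and 6 without control replicate 1, control replicate 3 and C3 replicate 3. With library size alone 5 of the members rose and 4 fell.

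Of 15 tested V-ATPase isoforms and assembly factors, 3 rose (20%, beside 11.0% of all genes) and 2 fell (13.3%, beside 8.77%). NCOA7, which binds the pump, and DMXL2, a rabconnectin that helps its assembly, had log2 fold changes of 0.32 and 0.32 (edgeR adjusted p = 0.00105 and 0.0337). The alternative a subunit ATP6V0A2 had 1220 ± 113 normalized counts in control and 1030 ± 34.5 in C3 libraries (SD, n = 3) and fell, with a log2 fold change of -0.24 (edgeR adjusted p = 0.0175). The a subunit TCIRG1, named after its value was seen, had 287 ± 10.5 and 343 ± 22.2 normalized counts (SD, n = 3) with a log2 fold change of 0.25 and an edgeR adjusted p-value of 0.0665. The log2 ratio of ATP6V0A1 to ATP6V0A2 within libraries was 0.86, 0.91 and 0.62 in control and 1.43, 1.17 and 1.25 in C3 libraries, a difference of 0.48, again between a gene called higher and one called lower (exact two-sided permutation p = 0.1, adjusted 0.1). The kidney and osteoclast isoforms ATP6V0A4, ATP6V0D2, ATP6V1B1 and ATP6V1G3 had at most 3 counts in any library.

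Of 33 tested other lysosomal enzymes, 4 rose (12.1%, beside 11.0% of all genes) and 11 fell (33.3%, beside 8.77%). The list held 1 higher DEG (3.03%, beside 5.05%) and 2 lower DEGs (6.06%, beside 1.47%). SCPEP1, a serine carboxypeptidase, had 234 ± 28.3 normalized counts in control and 403 ± 12.4 in C3 libraries (SD, n = 3) and rose, with a log2 fold change of 0.78 (edgeR adjusted p = 4.29e-06). HGSNAT, which acetylates heparan sulfate in the lysosomal membrane, fell from 720 ± 2.66 to 481 ± 53.1 (log2 fold change -0.59, edgeR adjusted p = 1.29e-05), and ARSB, a sulfatase, fell by a log2 fold change of -0.39 (standard error 0.080, edgeR adjusted p = 0.00115). Of 25 tested membrane proteins and transporters, 5 fell (beside 8.77% of all genes, as for the next lists), among them the DEG SLC29A3, a nucleoside transporter (log2 fold change -0.39). In the enzyme delivery list 4 of 21 (19.0%) fell, among them the DEG NAGPA, which uncovers the mannose 6-phosphate tag (-0.42). In the nutrient sensing list 4 of 22 (18.2%) fell, and those with the smallest p-values were MLST8 (-0.26), LAMTOR5 (-0.26) and RRAGA (-0.29), parts of mTORC1, of Ragulator and of the Rag GTPases. Of 35 tested autophagy genes, 4 rose (11.4%, beside 11.0% of all genes) and 9 fell (25.7%, beside 8.77%). The DEGs were GABARAPL1, an ATG8 homologue (log2 fold change 0.52), and OPTN, a cargo receptor (0.44), both higher (5.71% of the list, beside 5.05% of all genes).

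**Figure D4:**
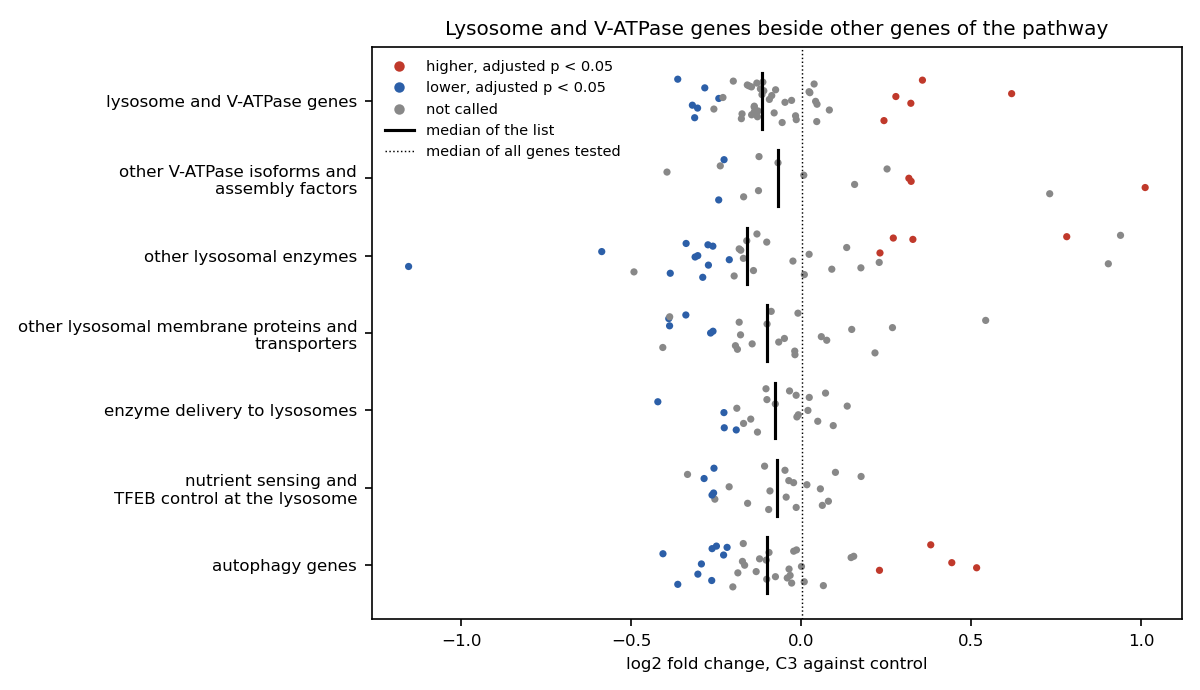
Log2 fold change (C3 against control) of the tested lysosome and V-ATPase genes (46) and of 6 lists of other genes of the pathway, each point a gene, with a bar at the median of each list and a dotted line at that of all genes tested (0.0021). All medians lie between -0.16 and -0.068, and red (higher) and blue (lower) points mark an adjusted p-value below 0.05.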

How the data were processed

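The authors trimmed reads (fastp), aligned them with STAR (2.6.1d) against GRCh38/hg38 and counted them per gene with featureCounts (1.5.0-p3), with versions from the submitters' processing notes. The deposited values are raw counts per Ensembl gene, without normalization. For the annotation release and the strand setting, nothing was given in the sources used here, and reads of overlapping genes are uncertain. Columns were matched to samples by name.

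The filter kept 15078 genes (10 or more counts in 3 or more libraries). The quasi-likelihood test of edgeR (4.0.16, R 4.3.3) was run on them with TMM factors, Benjamini-Hochberg adjustment over all of them and no replicate block, and standard errors were derived from its F statistic. DEGs passed an adjusted p of 0.01 with a fold change of 1.3, and a second gate was 0.05 at any fold change. Normalized counts were scaled to the mean effective size of the 6 libraries, and CPM to a common total. Depth limits precision mainly for genes of few counts.

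Symbols, coordinates and lengths came from GENCODE release 44 on GRCh38, which paired 58207 identifiers with a symbol. Levels per kilobase used all exons merged. The canonical transcript length was chosen after seeing the data. DESeq2 (1.42.0), limma-voom (limma 3.58.1), RLE factors, library size alone, 2 other count filters, the replicate block and each library left out were the alternatives. Fits were tested on simulated data.

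The members and lists were chosen with earlier results of these data known. Values per library are given for TFEB, TFE3 and MITF, for the called members (up to 3 per role and direction) and for the highest level per kilobase of each role, and exceptions are marked or added as plain log2 fold changes. In each list up to 3 DEGs with the smallest p-values are named, or else genes at an adjusted p-value below 0.05.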

Additional observations from a re-analysis of the deposited data

How the results depend on the processing

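The direction of all 11 called members was kept in all 13 alternatives, and LGMN, CTSL, TPP1, CTSD, ATP6V0A1 and ATP6V0D1 also kept their calls at 0.05. With library size alone, 2 members were higher DEGs, as were 5 other pathway genes, with 1 lower, and at 0.05 18 other pathway genes rose and 11 fell. At an adjusted p-value below 0.01 without the fold gate, 4 members were higher and 5 lower. Lower DEGs among the other pathway genes numbered 2 with no count filter and 2 with a mean count of at least 50, against 4. DESeq2 called 7 of them higher at 0.05, against 11. Leaving out single libraries, 0 to 1 members were lower DEGs, 3 to 4 rose and 3 to 13 fell at 0.05. Among the other pathway genes, 1 to 6 were lower DEGs, and 6 to 16 rose and 9 to 41 fell at 0.05. None of the counts under alternatives has a share of all genes beside it, since that share was counted for the main fit only. The log2 fold change of MITF reversed to 0.0347 without C3 replicate 3 (range -0.1805 to 0.0347 with single libraries left out). That of GLB1 reversed to 0.0433 with library size alone, and to 0.0067 and 0.0136 without C3 replicates 3 and 2 (range -0.0979 to 0.0136). The causes were not tested. Same-numbered libraries did not deviate together (correlations of 0.072, -0.069 and 0.048 for replicates 1 to 3), and control replicates 2 and 3 did not correlate best with their own number. With the replicate block, 5 members rose and 8 fell at 0.05, with HEXA and ATP6V1H added, and 1 was a higher DEG, and 11 other pathway genes rose and 40 fell. Merged exons and canonical transcripts gave different top levels for the proteases (CTSB and CTSC) and the V0 sector, and the order of TFEB and MITF turned.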
